A study of Oryza sativa Japonica Group with 6 samples.

Results

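Metallothioneins and the proteins that bind, carry or store iron, zinc and copper were examined in the rice coleoptile, a sheath around the young shoot that lengthens under water. They were chosen by wording: a cDNA was included when its description on the array named a metallothionein, ferritin, iron, copper, zinc or metal transport, nicotianamine, phytochelatin, heavy metal, Nramp or a numbered ZIP, and left out when it named superoxide, iron-sulfur, bZIP or chloroplast. The rule found 62 of 21495 cDNA probes, and 58 of them were tested among 19947. Wild-type rice and the *rad* mutant, named for reduced alcohol dehydrogenase activity, were both of the cultivar Kinmaze, and both had germinated under water, so no group was grown in air. Coleoptiles were cut from frozen sections by laser microdissection, and mutant and wild-type RNA were hybridised together on 6 two-colour arrays: 3 replicates, every one with a dye-swapped repeat. The labels give neither the lesion in the *rad* mutant nor the age of the seedlings, and they do not say whether replicates came from separate bottles; the spread behind the p-values is that of these samples and may be technical. Fewer cells of a type and less RNA per cell cannot be told apart in such samples.

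Metallothioneins are small cysteine-rich proteins that bind zinc and copper and can also scavenge reactive oxygen. Iron and zinc enter plant cells through ZIP-family carriers, among them IRT1, whereas grasses also secrete mugineic acids made from nicotianamine and take up the iron complex through yellow stripe transporters. Ferritin stores iron, P-type ATPases and small chaperones distribute copper, and blue copper proteins and amine oxidases use it. Each probe stands for its own cDNA and is named by the best match in its description, often from another species, so a name is not proof of function. The 62 cDNAs carried 38 distinct descriptions.

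Most of the metal-handling cDNAs stayed near 1:1 between the genotypes, and the larger differences lay in a few of them. Each value below is a log2 ratio of mutant over wild type, given per replicate as the mean of its dye-swapped arrays, then as mean ± SD (n = 3). A cDNA was called when the limma p, adjusted by Benjamini-Hochberg over all 19947 probes, was under 0.05. Of the 58 tested, 5 were called higher (8.62%) and 8 lower (13.8%), against 14.6% and 10.1% of all probes, so neither share stood far from the background. Their median was -0.05, against -0.01 over all probes, and it was -0.06, -0.04 and -0.05 in replicates 1, 2 and 3. At least 2-fold changes were called in 3 of the 58 cDNAs, 2 of them higher and 1 lower, against 357 higher and 164 lower among all 19947 probes. With the 6 arrays fitted separately and the replicate as a random block, 9 were called higher (15.5%) and 11 lower (19%), against 19.4% and 14.6% of all probes in that fit. An unadjusted p under 0.05 was given to 26 of the 58 (44.8%), against 38.3% of all probes. The plot of all 62 cDNAs by role shows this spread.

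**Figure D1:**
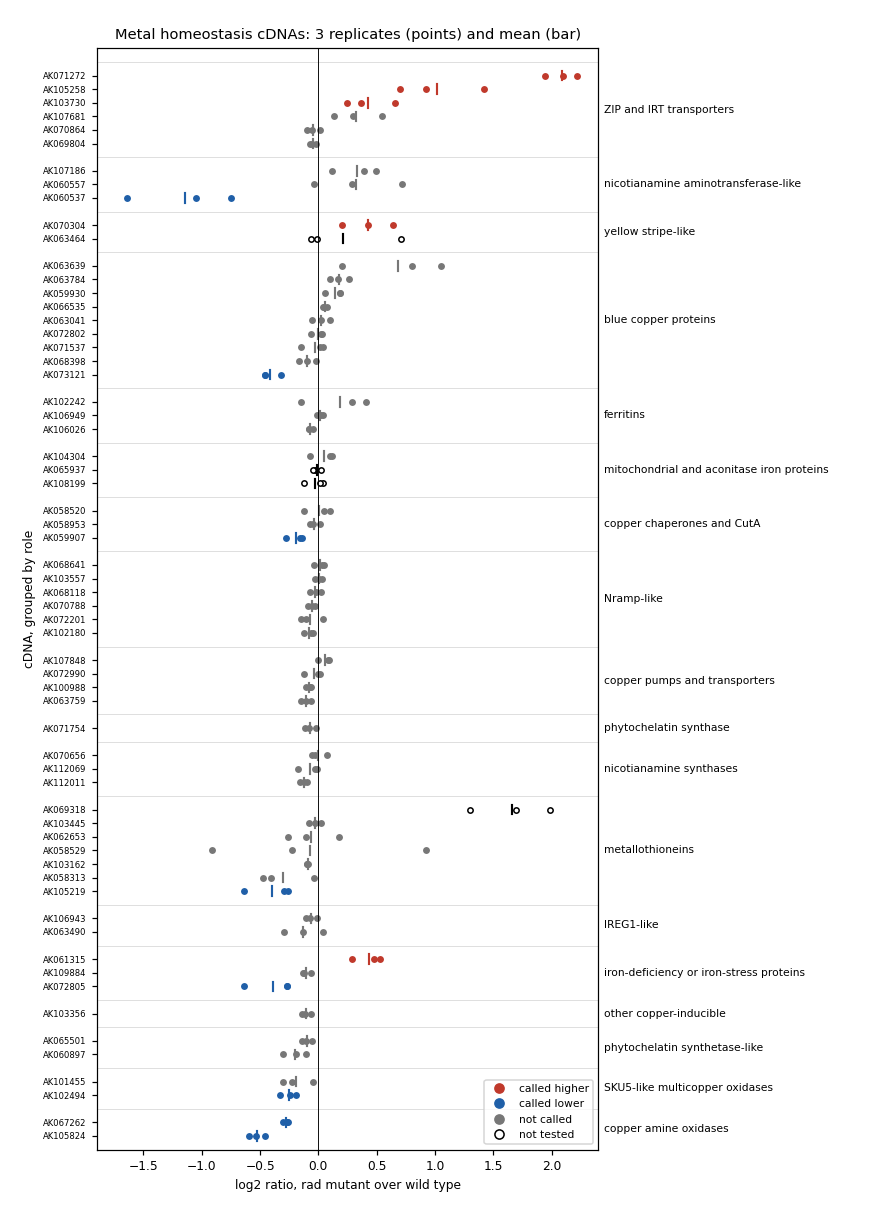
Log2 ratio of *rad* mutant over wild type (horizontal axis) for each of the 62 cDNAs (vertical axis, grouped by role), with 3 replicates as points and their mean as a bar; open points were not tested. Most cDNAs cluster around 0, with AK071272 at 2.09, AK069318 at 1.66 and AK060537 at -1.15 farthest out.

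The metallothioneins did not move together. The type 2 metallothionein OsMT-2 (AK069318) read 1.98, 1.70 and 1.30 in the 3 replicates, whereas the other 6 metallothionein cDNAs had means between -0.40 and -0.03. All 6 arrays put OsMT-2 higher in the mutant, from 1.13 to 2.13, and the levels of the genotypes did not overlap: the normalized log2 intensity was 11.20 to 11.44 in the wild type and 12.74 to 13.19 in the mutant. The mean of 1.66 ± 0.34 corresponds to 3.16-fold more signal in the mutant. It was not tested in the fit over 19947 probes, because the scanner software marked its spot as an outlier on 1 array, replicate 2 with the mutant in Cy5. That array read 1.86, within the range of the other 5, and without it the mean was 1.60 ± 0.35. With outlier spots kept, over 20213 probes, OsMT-2 was called (adjusted p = 0.00622). It was also called in that setting without replicate 1, 2 or 3 (adjusted p = 0.0392, 0.0439 and 0.00426).

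Both cDNAs described as the type 1 metallothionein OsMT-1 were near 0. AK103162 read -0.10, -0.09 and -0.09 (95% confidence interval of the mean -0.18 to -0.0037, adjusted p = 0.12), and AK103445 read -0.08, 0.03 and -0.03 (-0.14 to 0.078, adjusted p = 0.633). The AK103445 spot was close to background, at 1.79 to 2.98 times the local level, and with no offset its mean was -0.066. The remaining 4 cDNAs share the wording "metallothionein-like protein" and name no type. Of these AK105219 fell, with -0.64, -0.27 and -0.29 and a mean of -0.40 ± 0.21, 1.32-fold lower (adjusted p = 0.0414). That call disappeared without replicate 1, 2 or 3 (adjusted p = 0.06, 0.106 and 0.0594).

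AK058313 read -0.04, -0.48 and -0.41, a mean of -0.31 ± 0.24 that was not called (adjusted p = 0.0985). It was called without replicate 1 (adjusted p = 0.0438) and with the replicate block (0.0241). AK062653 read -0.26, 0.17 and -0.10 (-0.06 ± 0.22, adjusted p = 0.667). AK058529 had the widest spread of any of the 58 tested cDNAs, at 0.92, -0.22 and -0.92, with a mean of -0.07 ± 0.93 and an adjusted p of 0.9. Its 2 dye orientations gave like values within each replicate, 1.04 and 0.80 in replicate 1 and -0.92 and -0.91 in replicate 3, so the replicates differed in sign on both arrays. The plot of metallothioneins by array shows this split beside AK069318, which was higher in the mutant on every array.

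**Figure D2:**
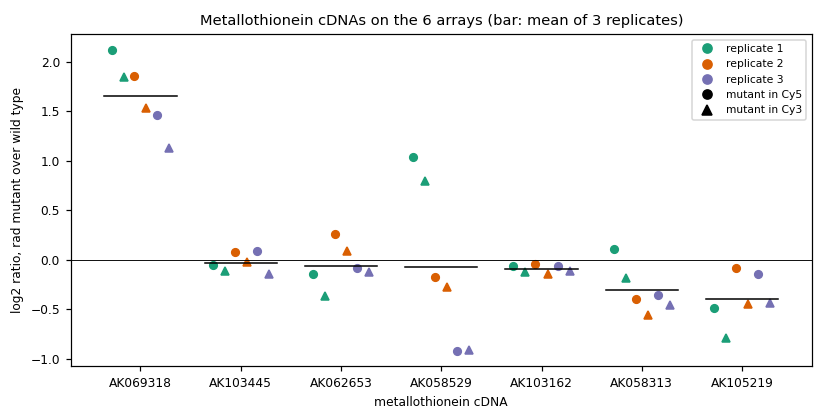
Log2 ratio of *rad* mutant over wild type (vertical axis) on each of the 6 arrays for 7 metallothionein cDNAs (horizontal axis); colours mark replicates, circles and triangles the dye of the mutant, and bars the mean of 3 replicates. AK069318 lies between 1.13 and 2.13 on all arrays, and AK058529 runs from 1.04 in replicate 1 to -0.92 in replicate 3.

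Zinc and iron carriers of the ZIP family held the largest tested rise, and no member of the family was called lower. Of 6 ZIP and IRT cDNAs, which carry 4 descriptions, 3 rose (50%, against 14.6% of all probes), and the median of the 6 was 0.37. Calls among so few cDNAs are given as a description. A cDNA like the zinc transporter ZNT1 of the metal-hyperaccumulating plant *Thlaspi caerulescens* (AK071272) read 1.95, 2.22 and 2.09. It rose by 2.09 ± 0.14, or 4.24-fold (95% confidence interval of the log2 ratio 1.91 to 2.26, adjusted p = 0.00204). Its normalized log2 intensity was 7.96 to 8.39 in the wild type and 10.05 to 10.61 in the mutant, with no overlap, and the call held without any 1 replicate (adjusted p up to 0.027).

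A cDNA like the soybean zinc transporter ZIP1 (AK105258) read 0.92, 1.42 and 0.70, with 1.01 ± 0.37 as the mean, 2.02-fold higher (adjusted p = 0.0164). In the wild type its spot was between 1.62 and 2.60 times the local background, and with no offset in the background correction the ratio was 3.43-fold. The call was lost without replicate 1 (adjusted p = 0.0932). The other cDNA with the same description (AK070864) did not share this, at -0.10, -0.05 and 0.01 (-0.05 ± 0.06, adjusted p = 0.454). A cDNA like Arabidopsis ZIP1 (AK069804) read -0.05 ± 0.03 and was not called. Its spot was weak, at 1.69 to 3.31 times the local background in the wild type and 1.73 to 2.84 in the mutant.

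The iron-regulated transporter OsIRT1, which carries ferrous iron into rice roots, was represented by 2 cDNAs with means of the same sign. AK103730 read 0.37, 0.66 and 0.25 and rose by 0.42 ± 0.21, 1.34-fold (adjusted p = 0.0368). AK107681 read 0.54, 0.30 and 0.13, a mean of 0.32 ± 0.21 that was not called (adjusted p = 0.0669), although it was with the replicate block (0.00655) and with a trended, robust prior (0.0412). All 6 arrays were positive for both cDNAs. In the wild type AK107681 was close to background, at 1.68 to 2.22 times the local level, against 6.22 to 14.5 times for AK103730. The call of AK103730 did not hold without replicate 1 or 2 (adjusted p = 0.144 and 0.0908).

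Among transporters for iron chelates, a cDNA like maize yellow stripe 1 (AK070304), the carrier of iron-phytosiderophore complexes, read 0.20, 0.42 and 0.64. It rose by 0.42 ± 0.22, 1.34-fold (adjusted p = 0.0394), and lost the call without replicate 1, 2 or 3 (adjusted p = 0.059, 0.161 and 0.0586). The other yellow stripe 1 cDNA (AK063464) was not tested because of an outlier spot. It read -0.01, -0.06 and 0.71, and 1 array alone, the marked one at 1.45, made the third value; without it the mean was -0.035 ± 0.02. Both cDNAs like the mouse iron exporter IREG1 were not called (AK063490, -0.13 ± 0.17, and AK106943, -0.06 ± 0.05). AK106943 was close to background, at 1.39 to 1.83 times the local level in the mutant, and well above it there on 2 of 6 arrays.

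Nramp proteins, which carry manganese and iron with protons, showed no called difference in limma. An unadjusted p under 0.05 was given to 0 of 6, against 38.3% of all probes. The 6 cDNAs share the description OsNramp1 and had means between -0.08 (AK102180) and 0.01 (AK068641). These 2 had weak spots, at 1.77 to 3.77 and 1.63 to 1.99 times the local background. Over the 6 cDNAs the lowest and highest limits of the 95% confidence intervals were -0.21 and 0.11.

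The plot of levels by genotype sets OsMT-2, the carriers and the cDNAs that fell side by side.

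**Figure D3:**
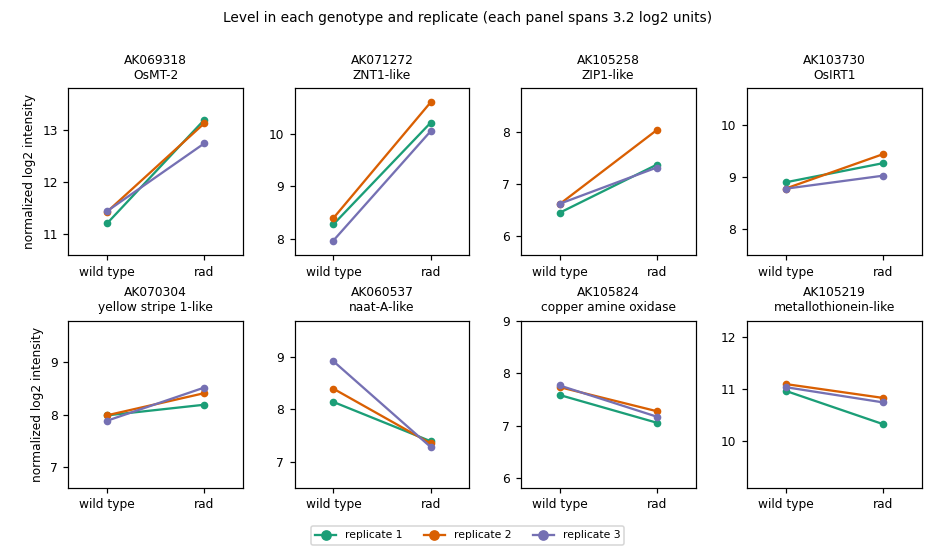
Normalized log2 intensity (vertical axis) in wild type and *rad* mutant for 8 cDNAs, 1 line per replicate; each panel spans 3.2 log2 units, and levels are not to be compared between panels. AK071272 goes from 7.96 to 8.39 in the wild type to 10.05 to 10.61 in the mutant, and AK060537 from 8.14 to 8.92 down to 7.28 to 7.39.

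In the nicotianamine pathway 1 of 3 aminotransferase-like cDNAs fell (33.3%, against 10.1% of all probes). Of 3 synthases 0 were called, against 14.6% of all probes higher and 10.1% lower. Calls among so few cDNAs are given as a description. Nicotianamine synthase joins molecules of S-adenosylmethionine. Its cDNAs osnas1 (AK112069), osnas2 (AK112011) and osnas3 (AK070656) read -0.07 ± 0.09, -0.13 ± 0.03 and -0.01 ± 0.07, and none was called (limma adjusted p = 0.352, 0.0708 and 0.942; osnas2 alone had an unadjusted p under 0.05), although osnas2 was negative on all 6 arrays and was called with the replicate block (0.0417). The osnas3 spot was close to background, at 1.5 to 2.16 times the local level, and well above it on 4 of 6 arrays in each genotype. Nicotianamine aminotransferase, the next enzyme towards mugineic acid in grasses, belongs to the same family as tyrosine aminotransferases. Of 3 cDNAs like barley naat-A, AK060537 read -0.75, -1.05 and -1.64.

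AK060537 fell by 1.15 on the log2 scale (SD 0.45), 2.21-fold, the largest fall among the 58 (adjusted p = 0.0189). Its level was 8.14 to 8.92 in the wild type and 7.28 to 7.39 in the mutant, so that the size of the fall followed the wild-type level, which was highest in replicate 3. The call did not hold without replicate 1 or 2 (adjusted p = 0.0575 and 0.0869). The other naat-A-like cDNAs had means of the opposite sign: AK060557 read 0.72, 0.29 and -0.04 (adjusted p = 0.21) and AK107186 read 0.49, 0.39 and 0.12 (0.33 ± 0.20, adjusted p = 0.0558; 0.0114 with the replicate block). The difference between the 3 cDNAs was not tested.

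Phytochelatins are glutathione polymers that bind cadmium and other metals. The cDNA of wheat-like phytochelatin synthase PCS1 (AK071754) read -0.07 ± 0.05 and was not called (adjusted p = 0.261). A pair of cDNAs described as phytochelatin synthetase-like (AK060897, -0.20 ± 0.10; AK065501, -0.10 ± 0.04) was not called either (adjusted p = 0.0584 and 0.137). Proteins under that name are COBRA-like cell-wall proteins and not phytochelatin synthases.

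Of 3 ferritin cDNAs 0 were called in limma, against 14.6% of all probes higher and 10.1% lower. An unadjusted p under 0.05 was given to 0 of the 3, against 38.3% of all probes. The rice ferritin cDNA AK106026 read -0.08, -0.08 and -0.05 (adjusted p = 0.216), close to background with a signal 1.71 to 2.52 times the local background. Fer2 (AK102242) read 0.29, 0.41 and -0.15, a mean of 0.18 ± 0.29 (adjusted p = 0.342), and was called without replicate 3, the only negative replicate (0.35, adjusted p = 0.026). Another cDNA (AK106949) is described by guinea pig ferritin light chain and read -0.01, 0.04 and 0.02 (adjusted p = 0.753).

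Copper proteins made up 21 of the tested cDNAs, and 5 of them fell (23.8%, against 10.1% of all probes) while 0 rose (against 14.6%). Calls among so few cDNAs are given as a description. Copper amine oxidases, which oxidise amines and release hydrogen peroxide, were lower on both cDNAs. The Arabidopsis-like one (AK105824) read -0.53, -0.46 and -0.60 and fell by 0.53 on the log2 scale (SD 0.07), 1.44-fold (adjusted p = 0.00558). Its levels did not overlap between genotypes, and its call held without any 1 replicate (adjusted p up to 0.0462). The chickpea-like one (AK067262) read -0.30, -0.27 and -0.26 and fell by 0.28 (SD 0.02, adjusted p = 0.0113); with no offset the value was -0.52, and its wild-type signal was 1.96 to 4.70 times the background. The call did not hold without replicate 1 or 2 (adjusted p = 0.0617 and 0.0872).

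SKU5 is a multicopper oxidase-like protein of the cell surface that affects directional root growth in Arabidopsis. Its rice-array matches read -0.19, -0.33 and -0.25 (AK102494, adjusted p = 0.0208) and -0.22, -0.30 and -0.04 (AK101455, adjusted p = 0.0999). AK102494 fell by 0.26 (SD 0.07), and its call disappeared without replicate 1, 2 or 3 (adjusted p = 0.0676, 0.128 and 0.0524).

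Blue copper proteins, small electron carriers often anchored at the plasma membrane, were mostly near 0. Of 9 cDNAs 1 fell (11.1%, against 10.1% of all probes) and 0 rose (against 14.6%). The fall was that of AK073121, like a protein of *Brassica oleracea*, which read -0.46, -0.46 and -0.32 (-0.41 ± 0.08, adjusted p = 0.00954). Its call ended without replicate 1 or 2 (adjusted p = 0.0629 and 0.0707). The maize-like AK063639 read 0.20, 0.80 and 1.05, a mean of 0.68 ± 0.43 that was just short of the threshold (adjusted p = 0.0578), with positive ratios on all 6 arrays. It was called with the replicate block (0.00382) and with a trended, robust prior (0.0317). The other 7 had means between -0.10 and 0.175 and were not called, although AK059930, like a pea protein, was with the replicate block (0.14 ± 0.07, adjusted p = 0.0876 and 0.0267 with the block).

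Proteins that move copper inside the cell changed little. The copper pumps like Arabidopsis RAN1, which supplies copper to ethylene receptors (AK072990, -0.04 ± 0.07; AK100988, -0.08 ± 0.02), a P-type ATPase like that of *Brassica napus* (AK063759, -0.10 ± 0.04) and a copper transporter (AK107848, 0.05 ± 0.05) were not called. Nor were the copper chaperones AK058520 (0.01 ± 0.12) and AK058953 (-0.04 ± 0.04). The copper-binding CUTA protein (AK059907) read -0.14, -0.28 and -0.16 and fell by 0.19 (SD 0.08, adjusted p = 0.0476). That call disappeared without replicate 1, 2 or 3 (adjusted p = 0.117, 0.232 and 0.0883), with no offset (0.0609) and with the scanner's processed signals (0.0623). A copper-inducible protein like one of *Festuca rubra* (AK103356) read -0.11 ± 0.04 (adjusted p = 0.106; 0.0355 with the replicate block).

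The remaining iron cDNAs were found by wording alone, and part of them has no part in iron transport. A cDNA like the iron-stress related protein RIS9 of *Citrus junos* (AK061315) read 0.53, 0.47 and 0.29 and rose by 0.43 ± 0.13, 1.35-fold (adjusted p = 0.0148). A cDNA like a 36 kDa protein of iron-deficient barley roots (AK072805) read -0.27, -0.27 and -0.64 and fell by 0.39 (SD 0.21, adjusted p = 0.0456), whereas another with the same description (AK109884) read -0.10 ± 0.04 (adjusted p = 0.118). Leaving out replicate 1 ended the call of AK061315 (adjusted p = 0.078) and that of AK072805 (0.126), as did leaving out replicate 2 (0.0916 and 0.118). The call of AK072805 was also lost with the scanner's processed signals (0.0525). Succinate dehydrogenase subunit B, an enzyme of respiration, was not called (AK104304, 0.05 ± 0.10). A second succinate dehydrogenase cDNA (AK108199, -0.03 ± 0.09) had an outlier spot, and aconitase (AK065937) was well above background on 0 of 6 arrays in either genotype, so neither was tested.

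Few of the 13 calls were stable when a replicate was left out: 2 of 13, AK071272 and AK105824, were called without any 1 of the 3, whereas 11 were lost without replicate 1, 10 without replicate 2 and 4 without replicate 3. Over all probes the count of calls went from 4929 to 1491, 1184 and 4573 in the same settings, each fitted with 1 replicate fewer. The plot of adjusted p-values shows these losses.

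**Figure D4:**
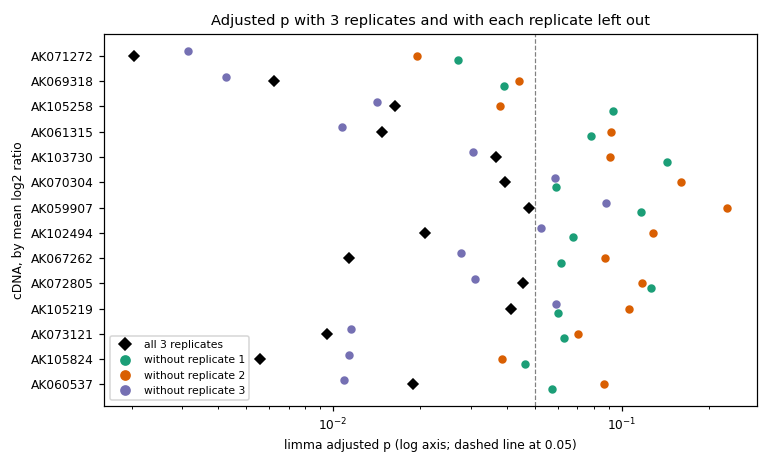
limma adjusted p (horizontal log axis, dashed line at 0.05) for the 13 called cDNAs and AK069318 (vertical axis, ordered by mean log2 ratio), with all 3 replicates (diamonds) and with each left out (circles); AK069318 is shown with outlier spots kept. AK071272, AK105824 and AK069318 stay left of the line throughout.

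Genes that work beside these proteins but fall outside the wording rule were read from 10 further lists. Over all probes 14.6% were called higher and 10.1% lower, the shares to set beside the percentages below. Most lists are short, so their counts are given as a description. Glutathione is the precursor of phytochelatins, and of 9 cDNAs for its synthesis and reduction 4 rose (44.4%) and 0 fell (median 0.19). They were glutathione reductase (AK108799, 0.82 ± 0.15, adjusted p = 0.0058), glutathione synthetase (AK068792, 0.48 ± 0.15) and 2 cDNAs of gamma-glutamylcysteine synthetase, which makes the first bond (AK100428, 0.41 ± 0.12; AK103315, 0.82 ± 0.39, named after its value was seen). Without replicate 1 or 2 the calls of AK068792, AK100428 and AK103315 were lost (adjusted p 0.0766 to 0.152), and that of AK108799 was kept.

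The molybdenum cofactor carries molybdenum in enzymes such as nitrate reductase. Of 4 cDNAs for its synthesis 3 rose (75%), with a median of 0.57. They were 2 described as CNX2 (AK065402, 0.66 ± 0.13, and AK100565, 0.83 ± 0.23) and Cnx1 (AK070456, 0.48 ± 0.14). Calls of AK100565 and AK070456 did not hold without replicate 1 (adjusted p = 0.0736 and 0.077), and that of AK070456 also without replicate 2 (0.0851).

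Among 11 cDNAs for haem and sirohaem 3 rose (27.3%) and 1 fell (9.09%), with a median of -0.01. Ferrochelatase, which inserts iron into haem, rose by 0.45 ± 0.05 (AK068174, adjusted p = 0.0061; 0.0515 without replicate 2) and protoporphyrinogen oxidase by 0.26 ± 0.06 (AK108365, lost without replicate 1 or 2 at adjusted p = 0.0647 and 0.116). Uroporphyrinogen decarboxylase fell by 0.22 (AK070859, SD 0.07, lost without any 1 replicate at adjusted p 0.0818 to 0.129). The remaining rise, named after its value was seen, was that of uroporphyrinogen III methyltransferase, which starts the branch to sirohaem (AK072497, 1.45 ± 0.75, lost without replicate 1 or 2 at adjusted p = 0.17 and 0.144). Among 16 iron-sulfur and ferredoxin-related cDNAs 2 rose (12.5%) and 1 fell (6.25%), with a median of 0.02. They included ferredoxin-sulfite reductase, an enzyme with a sirohaem and an iron-sulfur cluster, which read 2.33, 2.49 and 1.58 and rose 4.38-fold (AK073969, adjusted p = 0.00662; 0.0575 without replicate 1). The others were a mitochondrial ferredoxin (AK073241, 0.25 ± 0.11) and a ferredoxin (AK059896, -0.16 ± 0.02), whose calls were lost without replicate 1 or 2 (adjusted p 0.121 to 0.204), and for AK059896 also without replicate 3 (0.0802) and with the replicate block (0.0732).

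The list named for yellow stripe and phytosiderophore uptake held 17 cDNAs. Both yellow stripe cDNAs matched the wording rule, so none was in this list. It held oligopeptide transporters and cDNAs found through the short names ids and IDI, and is no measure of phytosiderophore uptake. Of the 17, 3 rose (17.6%) and 1 fell (5.88%), with a median of 0.02. Both larger rises were cDNAs like the Arabidopsis ids4-like protein At5g20150, an SPX-domain protein known from phosphate and not iron signalling (AK107245, 2.05 ± 0.67, 4.15-fold; AK063544, 0.94 ± 0.26; both lost without replicate 1 or 2 at adjusted p 0.0502 to 0.0629). The other calls were a putative oligopeptide transporter (AK100802, -0.26 ± 0.09) and an isopentenyl pyrophosphate isomerase that entered through its short name IDI2 (AK060336, 0.28 ± 0.14), both lost without any 1 replicate (adjusted p 0.0571 to 0.149). Of 5 cDNAs of the methionine cycle, which supplies nicotianamine synthase, 2 fell slightly (40%) and 0 rose, with a median of -0.09. Both were for methionine synthase (AK067726, -0.24 ± 0.09, and AK065255, -0.23 ± 0.09), and both calls were lost without any 1 replicate (adjusted p 0.0571 to 0.181).

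Of 17 other copper proteins 1 rose (5.88%) and 2 fell (11.8%), with a median of -0.06. Plantacyanin stood at 0.70 ± 0.34 (AK100153), lost without any 1 replicate (adjusted p 0.0527 to 0.0886). Plastocyanin of the photosynthetic chain stood at -0.50 ± 0.08 (AK070447, adjusted p = 0.00686). The other fall was a promoter-binding protein of ascorbate oxidase that is no copper protein (AK066912, -0.20 ± 0.09), lost without any 1 replicate (adjusted p 0.0802 to 0.154). Of 6 cDNAs with superoxide dismutase in the description 1 rose (16.7%), with a median of -0.05. The 6 include a copper chaperone for the enzyme (AK065277). The rise was that of a CuZn form (AK073785, 0.45 ± 0.24), lost without replicate 1 or 2 (adjusted p = 0.19 and 0.162). Of 33 cDNAs listed as iron- and oxygen-dependent dioxygenases or lipoxygenases 3 rose (9.09%) and 4 fell (12.1%), with a median of -0.05. They were found by wording, so not all need use iron, as with those worded 2-nitropropane dioxygenase (AK100705 and AK068155). The calls included LoxB at 1.04 ± 0.13 (AK071121), hydroxyphenylpyruvate dioxygenase at 0.73 ± 0.28 (AK058890) and an ACC oxidase at -0.36 ± 0.06 (AK102472). The calls of AK058890 and AK102472 were lost without replicate 1 or 2 (adjusted p 0.0543 to 0.112). Of 2 cation exchangers 0 were called in limma (AK100765, 0.44 ± 0.32, and AK069021, -0.13 ± 0.07). Both had an unadjusted p under 0.05 there, against 38.3% of all probes.

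**Figure D5:**
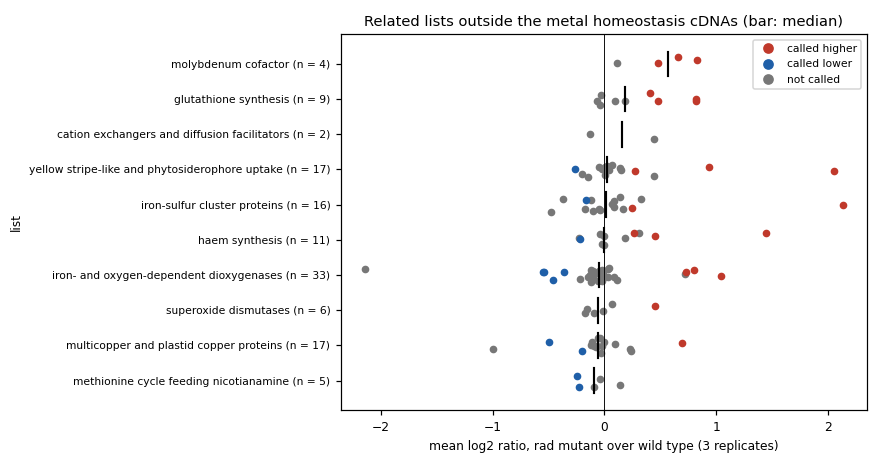
Mean log2 ratio of *rad* mutant over wild type (horizontal axis, n = 3 replicates) of each tested cDNA in the 10 further lists (vertical axis); colours mark calls and bars the list medians. The medians of molybdenum cofactor synthesis and glutathione synthesis lie farthest to the right, at 0.57 and 0.19.

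Some cDNAs in lists for other tissues, and for senescence and stress, moved with genotype. The lists were made by wording, so a member need not mark a tissue. Over all probes 14.6% were called higher and 10.1% lower. Of 45 photosynthetic leaf cDNAs 15 fell (33.3%) and 2 rose (4.44%). The falls included cDNAs for Rubisco subunit binding-protein (AK100602, AK061410 and AK101334), found through the word Rubisco. Over the 45, the mean normalized log2 intensity was 8.73 to 8.91 in the wild type and 8.57 to 8.77 in the mutant. Of 6 root cDNAs 2 fell (33.3%) and 0 rose, and their mean was 10.94 to 11.04 in the wild type and 10.17 to 10.82 in the mutant. The replicates differed here: the median ratio of the root cDNAs was -0.65, -0.66 and 0.0063 in replicates 1, 2 and 3. Of 16 endosperm and embryo cDNAs 1 rose (6.25%) and 0 fell, at 7.51 to 7.84 and 7.53 to 7.75. Of 19 senescence and stress cDNAs 4 rose (21.1%) and 0 fell, at 8.89 to 9.15 and 9.08 to 9.31. No probe matched the vascular list, and no defining marker of the coleoptile was listed, so the label of the tissue was not checked against one. The part of these tissues in the metal-handling values was not tested. On each array and in each genotype 90.4% to 95.7% of probes passed the scanner's test against background, and the number of arrays limits the precision.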

How the data were processed

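Per the labels' protocols, RNA from microdissected coleoptiles was amplified into Cy3- and Cy5-labelled cRNA. Per the file headers, Feature Extraction 8.5.1.1 quantified the 22575 spots of every array. The deposited mean and background intensity values carry no normalization; the deposited processed intensity was surface-subtracted and dye-normalized, per the file headers. The deposited value table holds the log10 ratio of those signals, equal to the scanner's to within 5e-06, with swapped arrays turned. Other deposited flags (0 or 1) mark saturation, outliers and spots above background.

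With limma 3.58.1 in R 4.3.3, normexp (offset 50) and loess gave log2 ratios, turned to mutant over wild type and averaged per dye-swap pair. Probes passed if well above background in a genotype on at least 4 arrays (20213), less 266 with an outlier spot. lmFit and eBayes tested the intercept (two-sided, Benjamini-Hochberg adjusted). Saturation touched none of the 62 cDNAs. Titles number the pairs; deviations from the mean of their orientation correlated at 0.805, 0.663 and 0.84 in pairs 1, 2 and 3. The arrays were on 6 slides scanned on 1 day, so no batch could be fitted.

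The members and lists were chosen with earlier results of these data known. Named with replicate values were all metallothioneins and ferritins, called members and those at 1 or beyond in size; replicate values of AK107681, AK063639, AK060557, AK107186, AK070864, AK101455 and AK063464 were added after they were seen. From each further list up to 3 called cDNAs with the smallest p were named; AK072497, AK103315, AK060336, AK100765 and AK069021 were added after their values were seen. A list for heavy-metal proteins matched no probe. None of the 62 accessions matched the gene table of GCF_034140825.1, so loci and sequences are not given. The fit was tested on simulated data.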

Additional observations from a re-analysis of the deposited data

Results flagged for a closer look

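For 5 of the 58 tested cDNAs (8.62%, against 6.95% of all probes) the 3 arrays with mutant RNA in Cy5 lay on one side of 0 and the 3 with mutant RNA in Cy3 on the other. The differences cancel in the dye-swap means. The copper chaperone AK058520 read 0.18 in the first orientation and -0.17 in the other (limma adjusted p of the dye term 0.028). The RAN1-like pump AK072990 read 0.045 and -0.12 (0.0491), and the ZIP1-like AK069804 read 0.057 and -0.16 (0.0135). The ferritin light chain-like AK106949 read -0.0397 and 0.074 (0.0532). The Nramp1-like AK068641 read -0.15 and 0.17 (0.00846). A dye term with a limma adjusted p under 0.05 was found more widely, in 15 of the 58 and in 4406 of all 19947 probes. Among the 15 were AK063490 (dye term -0.40) and the called AK071272 (0.24), AK105219 (0.32) and AK067262 (0.19).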

How the results depend on the processing

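Without 1 replicate, all-probe calls numbered 1184 to 4573, calls higher among the metal-handling cDNAs 2 to 7, calls lower 1 to 6, and the median was -0.057 to -0.042. Calls higher numbered 8 with median centring (all-probe calls 5194, against 4929 in the main fit). They also numbered 8 with a trended, robust prior and with the mutant in Cy3 only. With the replicate block they numbered 9, both without a dye term (all-probe calls 6781) and with it (6408). Over all settings calls lower ran from 1 to 12. The median was -0.073 with no offset, -0.069 with processed signals and with the value table, -0.067 with median centring, and -0.020 and -0.079 with the mutant in Cy5 or Cy3 only. With 1 probe per description 4 were higher and 6 lower of 35; all-probe calls were not counted in that setting. Signs were followed through the settings for 48 of the named cDNAs. In 7 instances an uncalled one of these turned its sign. AK106949 did so with median centring (-0.0004) and with the mutant in Cy5 only (-0.040). AK062653 (0.010) and AK103445 (0.038) did so with the mutant in Cy5 only. AK062653 also did so without replicate 1 (0.0358, lowest value with a replicate left out -0.1798). AK058529 did so without replicate 2 (0.0014) or 3 (0.3476, lowest -0.5694). Other uncalled metal-handling cDNAs were not followed, and some also changed sign with 1 orientation alone, such as AK072990, AK069804, AK058520 and AK068641 above. The cause was not tested. No date block could be fitted. Leave-one-out for outlier-spot cDNAs was chosen after seeing the data.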

Other observations

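Some metal-handling cDNAs that share a description had unlike ratios; these examples were chosen after their values were seen, and the differences were not tested. The cDNAs worded as metallothionein-like ranged from -0.40 (AK105219) to -0.06 (AK062653) in their means, but in replicate 1 alone they ran from -0.64 (AK105219) to 0.92 (AK058529). The cDNAs worded as soybean ZIP1 stood at 1.01 (AK105258) and -0.05 (AK070864), and those worded as barley naat-A at -1.15 (AK060537) and 0.33 (AK107186). Others with a shared description had means close together. Examples were the OsIRT1 cDNAs at 0.42 (AK103730) and 0.32 (AK107681) and the OsNramp1 cDNAs between -0.08 (AK102180) and 0.01 (AK068641). Of these, AK107681 and AK068641 had wild-type spots close to background.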
